A study of Caenorhabditis elegans with 32 samples.

Results

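Small RNA of the second descendant generation (F2) of the hrde-1 mutant of Caenorhabditis elegans was compared between animals under the hypoxia label and animals under the normoxia label. The 4 libraries were chosen by their labels alone, 2 from hrde-1 F2 animals under hypoxia and 2 from hrde-1 F2 animals under normoxia, of 32 libraries in the series. The labels describe whole worms, give the genotype of all 4 as hrde-1 with no allele named, and give no strain. The series as a whole asked whether small RNA changes after low oxygen are passed to descendants and whether they need HRDE-1. It sampled wild type (WT) and hrde-1 at the parental generation (P0) and at F1, F2 and F3, with 2 libraries in each of 16 groups. Per the labels' protocols, a single exposure meant that L4 larvae spent 16 h in a chamber at 0.1% oxygen and 20 °C before going back to about 20% oxygen. No label says which generations went through this, and hypoxia at F2 is taken here, as an assumption, to mean descent from exposed P0 animals. The labels also do not say that the 2 libraries of a group came from separate cultures, so a p-value measures the spread between these samples only, and that spread may be technical.

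HRDE-1 is an Argonaute protein of germline nuclei. It binds 22G RNAs, short antisense RNAs that begin with guanosine and are made on target transcripts by RNA-dependent RNA polymerases. With its nuclear partners it silences the matching genes by acting on nascent transcripts and chromatin, and it is known for carrying such silencing from parents to descendants. In a hrde-1 mutant the polymerases and the cytoplasmic Argonautes that also bind 22G RNA are still present. PIWI-interacting RNAs (piRNAs) act upstream and start 22G production on foreign transcripts, microRNAs (miRNAs) repress mRNAs by base pairing, and small nucleolar RNAs (snoRNAs) guide chemical modification of ribosomal RNA. A count of 22G RNA on a gene reports how strongly small RNAs target that gene, and not its own mRNA level. In whole worms, fewer cells of a type and less RNA per cell cannot be told apart.

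The 4 libraries held 1328943 and 473558 counts of 22G RNA under normoxia (libraries 1 and 2) and 805706 and 1244253 under hypoxia. For miRNA they held 2176053 and 2135225 counts against 1596466 and 2145983, for piRNA 344804 and 470041 against 382310 and 385981, and for snoRNA 136824 and 107466 against 196518 and 124560. Normoxia 2 was the shallowest in 22G RNA and showed 8465 genes above 0, against 11200 in normoxia 1 and 11653 and 11910 under hypoxia. At an equal depth of 400000 counts the expected numbers were 9672 and 8319 genes under normoxia and 10318 and 10047 under hypoxia. Normoxia 2 thus stood apart in 22G RNA also at equal depth. In the rest of the series, the F3 hrde-1 normoxia libraries showed 7428 and 6356 genes with 22G RNA at 1704956 and 1476410 counts, and results are given below with and without the 8 F3 libraries.

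Of the counts in the 4 classes, 22G RNA made up 33.3% and 14.9% under normoxia and 27% and 31.9% under hypoxia. The miRNA share was 54.6% and 67.0% against 53.6% and 55%, the piRNA share 8.65% and 14.8% against 12.8% and 9.89%, and the snoRNA share 3.43% and 3.37% against 6.59% and 3.19%. Both 22G hypoxia values lay between the normoxia values, and the groups overlapped in the piRNA and snoRNA shares as well as in miRNA. The mean difference, hypoxia minus normoxia, was 5.36 percentage points for 22G RNA (two-sided exact permutation p = 1), -6.51 for miRNA (p = 0.667), -0.341 for piRNA (p = 1) and 1.49 for snoRNA (p = 1). With 2 against 2 libraries this test cannot give a p below 0.333. The 22G difference was -3.87 points without normoxia 2, and the snoRNA difference was -0.209 without hypoxia 1. The piRNA difference was 2.71 points without normoxia 2 and 1.12 without hypoxia 2.

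**Figure D1:**
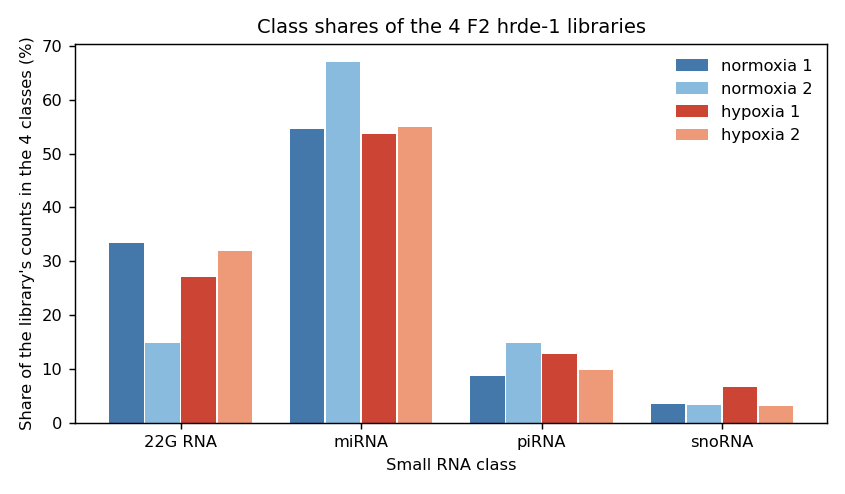
Bars give the share of each small RNA class in the counts of the 4 classes (percent, axis from 0), with 1 bar for each F2 hrde-1 library. The normoxia 2 library has the lowest 22G share, 14.9%, and the highest miRNA share, 67.0%, and no class separates the 2 oxygen groups.

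On 22G RNA, 0 of 10121 genes tested passed the threshold, an adjusted p below 0.05 in edgeR's quasi-likelihood test across all 32 libraries (0.0% called). The lowest adjusted p was 0.101. At an unadjusted p below 0.05 there were 837 genes (8.27%), of which 572 were higher under hypoxia (5.65%) and 265 lower (2.62%). DESeq2 called 58 genes (0.573%), 48 higher (0.474%) and 10 lower (0.0988%). DESeq2 gave no adjusted p to 7456 of the 10121 genes. Its percentages are of all 10121, so they cannot be set directly beside those of edgeR. Over all genes tested the median log2 fold change was 0.07, with 53.7% above 0. Both hypoxia libraries lay above both normoxia libraries in 2217 genes (21.9%) and below both in 1242 (12.3%).

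The count of calls depended on which libraries entered the fit. Without the 8 F3 libraries, edgeR called 169 of 9302 genes (1.82%), 128 higher (1.38%) and 41 lower (0.441%), and the cause of this dependence was not tested. The test estimates the spread across all groups that are in the fit. In the fit with the F3 libraries, leaving out normoxia 1 gave 82 called genes, 58 higher and 24 lower, hypoxia 2 gave 1, and either of the other libraries 0. DESeq2 without normoxia 1 called 118, with more lower (76) than higher (42), the opposite of its split of 48 higher and 10 lower with all libraries. All 169 genes had hypoxia and normoxia libraries that did not overlap, with a median absolute log2 fold change of 1.36 among the higher and 1.46 among the lower genes. They were called by the difference between these same libraries, so the separation follows largely from the choice. Of the 128, 105 were protein-coding genes, 13 pseudogenes, 5 ncRNA genes, 2 lincRNA genes, 2 snRNA genes and 1 snoRNA gene. The 41 held 38 protein-coding genes, 2 pseudogenes and 1 tRNA gene. Of the 128 higher genes 18 had a library at 0, and 8 were at 0 in both normoxia libraries. In what follows, levels are 22G counts scaled to a common library total within the class after TMM scaling, on the usual counts-per-million scale (CPM), always in the order normoxia 1 and 2 and then hypoxia 1 and 2. Log2 fold changes are hypoxia against normoxia from the fit of all 32 libraries, ± standard error (SE), with 2 libraries in each group.

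Among the genes with higher 22G levels under hypoxia, those with the smallest p are given first. The gene gta-1 (IV:10180660-10183865, WBcel235), which encodes the GABA transaminase that breaks down the transmitter GABA, stood at 11.5 and 6.93 CPM against 185 and 73.3. Both hypoxia libraries lay far above both normoxia libraries, a log2 fold change of 3.66 ± 0.66 (adjusted p = 0.101, and 0.0079 without F3). ugt-64 (V:3503080-3506352), a UDP-glucuronosyltransferase gene of the family that conjugates small lipophilic compounds, had 251 and 83.1 CPM against 677 and 682. The normoxia libraries were far from each other and the hypoxia libraries close, with both hypoxia values the higher. The log2 fold change was 1.98 ± 0.41 (adjusted p = 0.101, and 0.0427 without F3). For fbxc-42 (II:991600-993179), whose product carries the F-box motif of ubiquitin ligase adaptors, the levels were 18 and 18.5 CPM against 61.6 and 64.8. The replicates were close in both groups and the groups were well apart, at 1.79 ± 0.37 (adjusted p = 0.101, and 0.0042 without F3).

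rsu-1 (III:3472003-3473722), the homologue of the Ras suppressor that acts at muscle and cell adhesion sites, had 61.3 and 99.3 CPM against 384 and 224. Its groups did not overlap, and the log2 fold change was 1.96 ± 0.43 (adjusted p = 0.114, and 0.00517 without F3). F31C3.6 (I:15053608-15058994) had 20.2 and 36.9 CPM against 138 and 105, a log2 fold change of 2.19 ± 0.47 (adjusted p = 0.114, and 0.0079 without F3). K05C4.9 (I:14726281-14730738) had 368 and 356 CPM against 635 and 787. It was the most abundant of these genes, with replicates close under normoxia and a log2 fold change of 0.98 ± 0.20 (adjusted p = 0.101, and 0.0079 without F3).

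Noncoding loci stood beside them. sls-2.7 (I:9057890-9057999), a gene for the SL2 spliced leader RNA that is added to downstream genes of operons, had 55.5 and 18.5 CPM against 111 and 153. The groups did not overlap, and the log2 fold change was 1.73 ± 0.36 (adjusted p = 0.101, and 0.00517 without F3). The pseudogene F54D10.6 (II:3814376-3815458) had 42.5 and 50.8 CPM against 136 and 106, at 1.39 ± 0.29 (adjusted p = 0.101, and 0.0079 without F3). The pseudogene W02A11.6 (I:12754091-12755126) had 207 and 139 CPM against 350 and 343, at 0.98 ± 0.23 (adjusted p = 0.117, and 0.0149 without F3). A pair of further genes was chosen after their values were seen. calu-2, a gene of the calumenin family of calcium-binding proteins of the secretory pathway, had 33.9 and 32.3 CPM against 218 and 120 (2.34 ± 0.78, adjusted p = 0.407, and 0.00163 without F3). nmtn-1 had 231 and 252 CPM against 544 and 461, at 1.06 ± 0.26 (adjusted p = 0.181, and 0.00321 without F3).

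**Figure D2:**
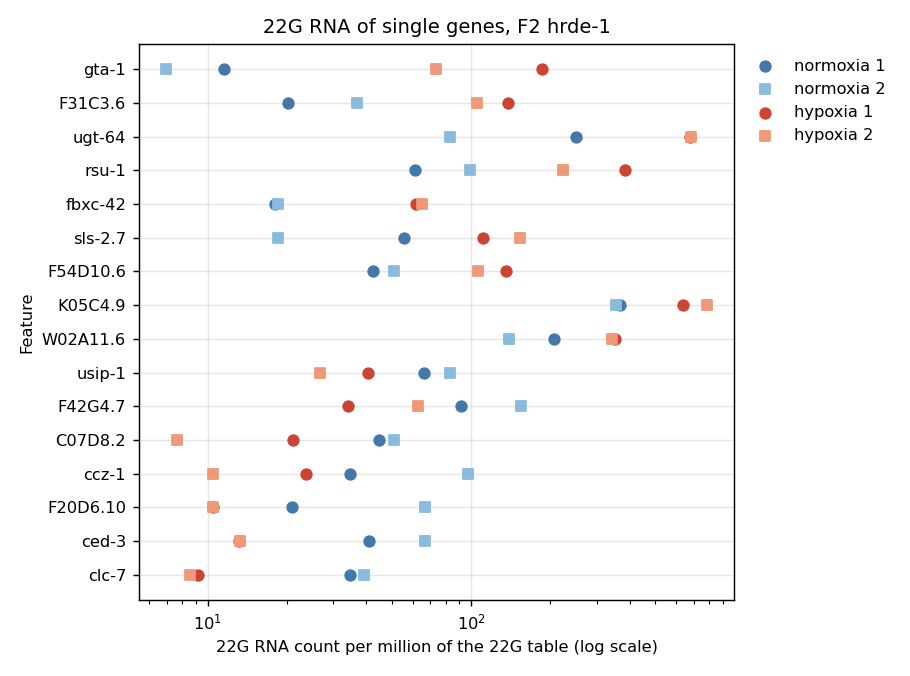
22G RNA levels (horizontal axis, CPM on a log scale) of the genes with the smallest p in each direction (vertical axis), 1 point for each F2 hrde-1 library. The genes were chosen by p from these same libraries. For every gene drawn, the normoxia and hypoxia points do not overlap, as for gta-1 with 11.5 and 6.93 CPM against 185 and 73.3.

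The genes with less 22G RNA under hypoxia had low to moderate levels. ced-3 (IV:13198261-13204137), the caspase gene that carries out programmed cell death, had 41.1 and 67 CPM against 13.1 and 13.3. Its hypoxia libraries were nearly equal and both lay below the normoxia libraries, at a log2 fold change of -1.98 ± 0.47 (adjusted p = 0.146, and 0.00474 without F3). clc-7 (X:5068096-5074447), a claudin-like gene of a family found at cell junctions, had 34.6 and 39.3 CPM against 9.18 and 8.57. Replicates were close in both groups and the groups were apart, at -2.04 ± 0.46 (adjusted p = 0.114, and 0.0079 without F3). The pseudogene C07D8.2 (X:7362082-7363663) had 44.7 and 50.8 CPM against 21 and 7.62, at -1.77 ± 0.39 (adjusted p = 0.114, and 0.00796 without F3).

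ccz-1 (V:13678875-13681539), a subunit of the exchange factor that activates RAB-7 on late endosomes, had 34.6 and 97 CPM against 23.6 and 10.5. The groups did not overlap, the replicates differed widely within both, and the log2 fold change was -1.91 ± 0.49 (adjusted p = 0.223, and 0.0205 without F3). usip-1 (V:12181348-12184194), which encodes a uridylyltransferase acting on U6 RNA, had 66.3 and 83.1 CPM against 40.7 and 26.7, at -1.15 ± 0.31 (adjusted p = 0.255, and 0.0225 without F3). F42G4.7 had 91.5 and 155 CPM against 34.1 and 62.8, at -1.29 ± 0.34 (adjusted p = 0.224, and 0.0177 without F3). In each of these genes the higher hypoxia value was below the lower normoxia value. Several named genes overlap a neighbour in the WBcel235 annotation, gta-1 with ptrg-1, ugt-64 with C07G3.10, F31C3.6 with psf-2, rsu-1 with C34C12.9, clc-7 with cal-5, ced-3 with C48D1.12, ccz-1 with F58G11.8 and F58G11.9, and usip-1 with elpc-3. Whether reads were counted by strand was not given in the sources used here, and counts of such partners could not be told apart.

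The hrde-1 gene itself (III:4172337-4176159) had 300 and 298 CPM of 22G RNA against 327 and 300, a log2 fold change of 0.07. Its groups did not differ beyond the spread, and 22G RNA on the gene does not check the genotype. F44E5.4 (II:11757107-11759311) and F44E5.5, a near-identical pair of hsp-70 family genes that can share reads, were low, at 15.1 and 6.93 CPM against 17.1 and 7.62 and at 19.5 and 6.93 CPM against 18.4 and 5.71. In both the library pairs overlapped.

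The F1 hrde-1 libraries share no library with the F2 ones, so genes called at F1 could be followed into F2. Of 10121 genes, 35 were called at F1 in the same fit (0.346%), 28 with more 22G RNA under hypoxia (0.277%) and 7 with less (0.0692%). At F2, 25 of the 28 again lay above 0, against 53.7% of all genes, and their median log2 fold change was 0.70 against 0.07. At an unadjusted p below 0.05, 16 of the 28 were higher, against 5.65% of all genes. Both comparisons used the same estimate of each gene's spread, which can favour a small p at F2 for genes called at F1. Of the 7, 6 lay below 0 at F2, with a median of -0.37, and 3 were lower at an unadjusted p below 0.05, against 2.62% of all genes. In the fit of all 32 libraries, 0 of the 35 were called at F2. In the fit without F3, 9 of the 35 were, 8 of those higher at F1 with a higher and 1 of those lower at F1 with a lower F2 level. Of all genes, that fit called 1.38% higher and 0.441% lower at F2. The test of the difference between the F2 and F1 responses called 0 of 10121 genes (0.0%), with 591 at an unadjusted p below 0.05 (5.84%) and 4 called by DESeq2 (0.0395%). Without F3 this test called 33 of 9302 genes (0.355%), 20 with a higher (0.215%) and 13 with a lower (0.14%) response at F2.

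Among the F1 genes, nhr-229 (IV:17028931-17030594), a nuclear hormone receptor gene, had 391 and 470 CPM against 1740 and 1700 at F1. At F2 it stood at 1290 and 776 CPM under normoxia and at 1840 and 2290 under hypoxia. The hypoxia libraries were above the normoxia libraries in both generations, and the gap was narrower at F2 with a higher normoxia level (0.99 ± 0.26, adjusted p = 0.223, and 0.0101 without F3). hil-8 (I:5463117-5469639), a linker histone-like gene, had 462 and 449 CPM against 1250 and 1220 at F1 and 692 and 684 against 1430 and 1250 at F2. Its replicates were close in all 4 groups, and at F2 the log2 fold change was 0.97 ± 0.26 (adjusted p = 0.255, and 0.0137 without F3).

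F20B6.5 (X:4198819-4199929) had 74 and 54.5 CPM against 227 and 222 at F1, and at F2 165 and 73.9 against 258 and 238 (1.0 ± 0.26, adjusted p = 0.224, and 0.0297 without F3). F22H10.1 (X:16702442-16703440) had 264 and 189 CPM against 370 and 452 at F2, at 0.85 ± 0.27 (adjusted p = 0.355, and 0.038 without F3). C01A2.6, which overlaps C01A2.10, had 185 and 192 CPM against 226 and 331, at 0.57 ± 0.24 (adjusted p = 0.525, and 0.154 without F3). In these the F2 groups did not overlap. Of the 28 genes higher at F1, 17 had both F2 hypoxia libraries above both normoxia libraries, 1 had them below and 10 overlapped. Of the 7 lower at F1, 4 had them below and 3 overlapped. Among all genes tested, 21.9% had them above and 12.3% below. Y59E1A.4, with the smallest p at F1, had 331 and 316 CPM against 300 and 443 at F2 (0.20 ± 0.24, adjusted p = 0.896), and its log2 fold change turned to -0.12 without hypoxia 2. The pseudogene B0524.4 had 47.6 and 20.8 CPM against 43.3 and 77.1 (0.74 ± 0.43, adjusted p = 0.676). In both the hypoxia and normoxia libraries overlapped at F2. On the side with less 22G RNA, F20D6.10 was called lower at F1 and had 20.9 and 67 CPM against 10.5 and 10.5 at F2, at -1.92 ± 0.52 (adjusted p = 0.255, and 0.0268 without F3).

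**Figure D3:**
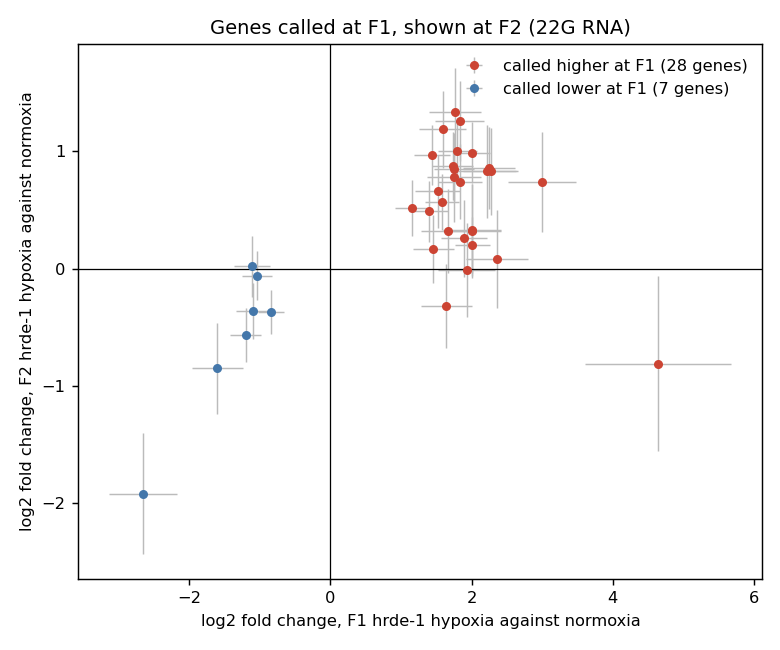
Each point is a gene called at F1 hrde-1, with its log2 fold change (hypoxia against normoxia) at F1 on the horizontal axis and at F2 on the vertical axis, and lines of ± SE. Of the 28 genes higher at F1, 25 lie above 0 at F2, with a median of 0.70, and of the 7 lower at F1, 6 lie below 0.

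The fits without F3 gave a larger overlap to count. F1 hrde-1 then had 272 genes called (2.92%), 158 higher (1.7%) and 114 lower (1.23%). Of these, 17 were also higher at F2, 13.3% of the F2 and 10.8% of the F1 list, and 6 were also lower, 14.6% of the F2 and 5.26% of the F1 list, with 0 in opposite directions. Of the 128 genes called higher at F2, 105 lay above 0 at F1, with a median of 0.43 against 0.0 for all genes. P0 hrde-1 had 320 genes called (3.44%). Of these, 121 were higher (1.3%), of which 14 were shared (10.9% of the F2 and 11.6% of the P0 list), and 199 were lower (2.14%), of which 4 were shared (9.76% and 2.01%). There, 3 of the F2 higher genes and 1 of the F2 lower genes were called in the opposite direction. In the fit of all libraries, the 8 genes called higher at P0 (0.079%) had a median of 0.12 at F2 and the 64 called lower (0.632%) a median of 0.15, against 0.07 for all genes. Across all 10121 genes the F2 log2 fold changes had a Pearson correlation of 0.08 with those at F1 and 0.06 with those at P0. Across the 2497 genes at 50 CPM or more it was 0.27 with F1, 0.16 with P0, 0.08 with F3 and -0.24 with F2 WT. These are descriptions across genes that share libraries and depth within each comparison.

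Described by group, 0 genes of any list passed the threshold in edgeR's fit of all libraries. Long intergenic RNA loci are given first. Of 45 tested, 36 lay above 0, 18 (40%) had both hypoxia libraries above both normoxia libraries and 1 (2.22%) below both, against 21.9% and 12.3% of all genes. Their median log2 fold change was 0.49 against 0.07, and it ranged from 0.36 to 0.75 when each library was left out. linc-29 had 2850 and 2060 CPM against 3900 and 3370 (0.56 ± 0.19), linc-41 had 200 and 199 against 359 and 328 (0.79 ± 0.27), and linc-21 had 639 and 635 against 858 and 1300 (0.76 ± 0.28). Only linc-21 of this list passed without F3 (adjusted p = 0.0268). Their groups did not overlap.

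F-box genes, a large and fast-evolving family of ubiquitin ligase adaptors, had a median above that of all genes. Of 150 tested 90 lay above 0, with a median of 0.24, and 47 (31.3%) had hypoxia above normoxia against 16 (10.7%) below. fbxa-10 had 177 and 150 CPM against 294 and 385 (1.05 ± 0.30, adjusted p = 0.0343 without F3). fbxa-136 had 158 and 60 CPM against 340 and 190 (1.22 ± 0.34). Without F3, 3 of 138 F-box genes were called higher (2.17%, against 1.38% of all genes) and 2 lower (1.45%, against 0.441%). In the related MATH and BATH genes, which encode adaptors of another ubiquitin ligase type, 28 of 35 lay above 0, with a median of 0.32. Only 7 of them (20.0%) had hypoxia above normoxia, near the 21.9% of all genes, and 2 (5.71%) had it below, against 12.3%. bath-30 had 17.3 and 30 CPM against 76.1 and 89.5, the widest gap among those named (1.89 ± 0.67, adjusted p = 0.00244 without F3).

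ERGO-1 class targets are genes, often duplicated, whose 22G RNA starts from 26G RNAs bound by the Argonaute ERGO-1. Of 18 tested 14 lay above 0, 6 (33.3%) had hypoxia above normoxia and 3 (16.7%) below, against 21.9% and 12.3% of all genes. Both shares were thus over those of all genes, on few genes, and the median was 0.34 against 0.07. C44B11.6 (III:3153148-3153336) had 459 and 369 CPM against 695 and 897, at 0.94 ± 0.23 (adjusted p = 0.176, and 0.013 without F3). K02E2.6 had 1510 and 1600 CPM against 1780 and 2410 (0.43 ± 0.21), and Y17D7B.4 had 464 and 582 against 619 and 795 (0.44 ± 0.24). Their groups were apart. Collagen and cuticle genes had 24 of 29 above 0 and a median of 0.46, but the median was -0.03 without hypoxia 2. In the C-type lectins, genes of secreted sugar-binding proteins, the median was 0.43. clec-140 had 191 and 148 CPM against 249 and 292 (0.67 ± 0.21).

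Other lists had lower medians. Germ granule genes, whose products build the perinuclear granules in which small RNA is made and sorted, had 5 of 17 above 0 and a median of -0.20. In 7 (41.2%) both hypoxia libraries lay below both normoxia libraries and in 0 above, against 12.3% and 21.9% of all genes. The median ranged from -0.50 to -0.13 when each library was left out. The summed level of the list was 3430 and 2680 CPM under normoxia and 2670 and 2800 under hypoxia, with overlapping groups. glh-2, a germline Vasa helicase gene, had 57.6 and 80.8 CPM against 32.8 and 35.2 (-1.0 ± 0.42). deps-1 had 114 and 97 CPM against 70.8 and 72.4 (-0.57 ± 0.27) and car-1, a gene for an RNA-binding granule protein, 134 and 145 against 77.4 and 96.2 (-0.68 ± 0.34). None of them passed in either fit. mut-7, of the small RNA synthesis machinery, encodes an exonuclease of Mutator foci. It had 187 and 254 CPM against 159 and 122 (-0.65 ± 0.25), with a median of 0.06 over its list of 40.

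Oocyte and maternal genes had 11 of 35 above 0 and a median of -0.27, which was 0.07 without normoxia 1. cpg-1, which encodes an eggshell proteoglycan, had 56.2 and 46.2 CPM against 30.2 and 28.6 (-0.82 ± 0.35), and lin-41, a regulator of oocyte RNA, 33.1 and 64.7 against 30.2 and 13.3 (-1.14 ± 0.53). Ribosomal protein genes had 28 of 71 above 0 and a median of -0.21, which was 0.13 without normoxia 1. rpl-10 had 46.8 and 94.7 CPM against 24.9 and 28.6 (-1.36 ± 0.39, adjusted p = 0.044 without F3). The median over all genes was itself 0.35 without normoxia 1.

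Of histone methylation enzyme genes, jmjd-3.2, which encodes a demethylase of histone H3 lysine, had 213 and 395 CPM against 164 and 151 (-0.93 ± 0.29, adjusted p = 0.0388 without F3). rbr-2, another such demethylase gene, had 47.6 and 48.5 CPM against 24.9 and 24.8 (-0.95 ± 0.44). Genes of the hypoxia response (HIF-1 pathway) had 5 of 13 above 0 and a median of -0.76, which was 0.00 without normoxia 1 and -0.04 with only the hrde-1 libraries, and their summed level was 464 and 446 CPM against 401 and 478. Glycolysis genes had a median of -0.43, and 0.09 without normoxia 1. Heat shock genes had 6 of 19 above 0 and a median of -0.09, and 0.70 without normoxia 1. hsp-90 had 58.4 and 25.4 CPM against 22.3 and 26.7 (-0.85 ± 0.43), with overlapping groups.

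Lists that mark tissues were summed as a check on the makeup of the targeted genes. Sperm genes summed to 958 and 760 CPM under normoxia and 909 and 1030 under hypoxia, and oocyte and maternal genes to 2590 and 2170 against 2190 and 2070. Muscle genes summed to 7.21 and 0 CPM against 14.4 and 12.4, with 3 of the list tested and unc-54 at 0 in all 4 libraries. The vitellogenin and intestine list summed to 37.5 and 71.6 CPM against 43.3 and 39. The hypoxia and normoxia libraries overlapped in each of these sums except that of muscle genes, which rests on few counts, and the part of these levels in the results above was not tested.

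**Figure D4:**
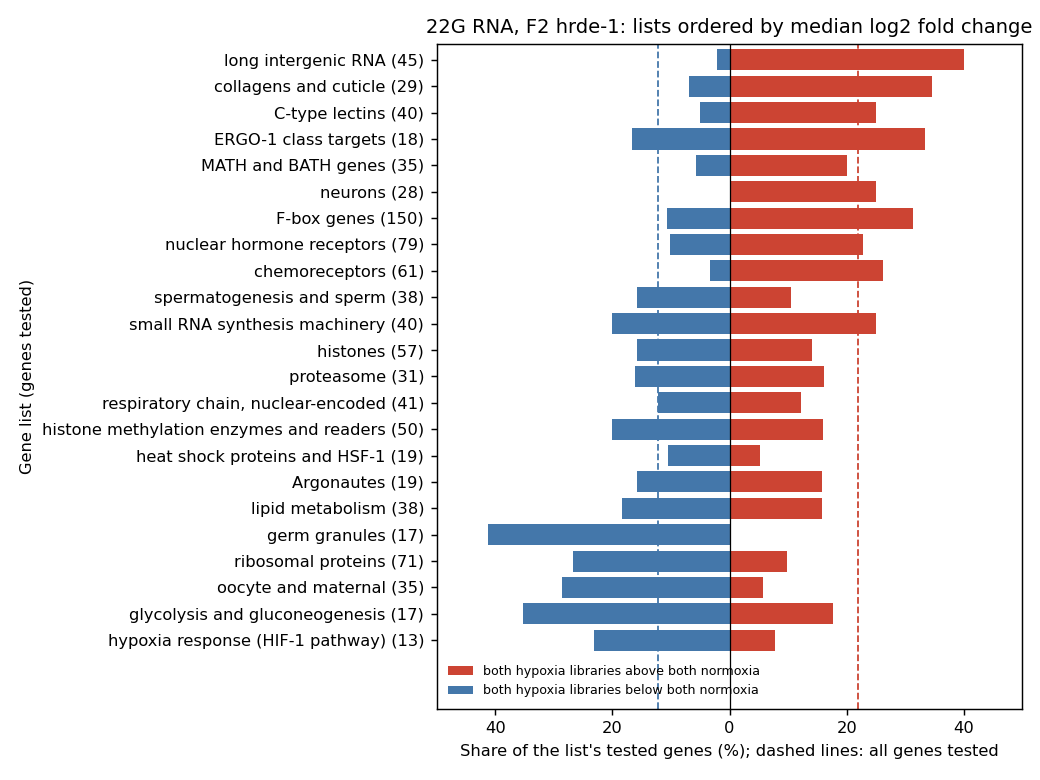
For each 22G RNA gene list drawn (vertical axis, with the number of genes tested), bars to the right give the percent of genes with both hypoxia libraries above both normoxia libraries and bars to the left the percent below. Dashed lines give the same for all genes, 21.9% and 12.3%. The lists of ribosomal RNA, vitellogenin and intestine, and muscle genes, with few genes tested, are not drawn. Long intergenic RNA loci reach 40% to the right and 2.22% to the left, and germ granule genes 0 and 41.2%.

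F2 WT animals were compared in the same way and share no library with the hrde-1 ones. The F2 WT normoxia libraries alone held partly fractional values, in 24.5% and 23.6% of their 22G entries, and were rounded, unlike their hypoxia partners. The part of this in the WT values below was not tested. edgeR called 0 of 10121 genes there (0.0%), with 166 at an unadjusted p below 0.05 (1.64%), and DESeq2 called 14 (0.138%), all lower under hypoxia. DESeq2 gave 6279 of these 10121 genes no adjusted p. The test of the difference between the hrde-1 and WT responses at F2 called 0 genes (0.0%), with 630 at an unadjusted p below 0.05 (6.22%), 493 with a higher (4.87%) and 137 with a lower (1.35%) response in hrde-1. DESeq2 called 41 (0.405%), and edgeR without F3 called 61 of 9302 (0.656%), 55 with a higher (0.591%) and 6 with a lower (0.0645%) response in hrde-1. In this test of the difference, DESeq2 gave no adjusted p to 8633 of the 10121 genes. Of the 128 genes called higher in hrde-1 without F3, 42 lay above 0 in WT, with a median of -0.13 against 0.0 for all genes. None was called in WT, but that fit called only 3 of 9302 genes in F2 WT (0.0323%), all lower. The lack of shared calls therefore cannot show whether these genes respond in WT.

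Genes described above had these levels in WT. nhr-229 lay on the other side of 0, at 951 and 870 CPM under normoxia and 650 and 530 under hypoxia. The difference of the responses was 1.62 ± 0.36 on the log2 scale (adjusted p = 0.487, and 0.0165 without F3). In WT, F20B6.5 had 647 and 574 CPM against 443 and 419, a difference of 1.5 ± 0.36 (adjusted p = 0.487, and 0.0335 without F3). C44B11.6 had 836 and 747 CPM against 746 and 575, a difference of 1.2 ± 0.32 (adjusted p = 0.487, and 0.0379 without F3). In WT ced-3 had 54 and 60 CPM against 70.9 and 53, a difference of -2.10 ± 0.62 (adjusted p = 0.508, and 0.031 without F3). gta-1, by contrast with its hrde-1 hypoxia levels, had 6 and 5.46 CPM against 4.91 and 7.49 in WT, a difference of 3.54 ± 1.02 (adjusted p = 0.496, and 0.128 without F3). The median of the WT response was -0.31 for long intergenic RNA loci and -0.65 for ERGO-1 class targets, against 0.49 and 0.34 in hrde-1 and -0.02 for all genes in WT. These medians rest on the WT normoxia libraries with fractional values, and their difference was not tested.

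The F2 and F3 responses of hrde-1 differed in 953 of 10121 genes (9.42%) by the test of the difference, 298 with a higher (2.94%) and 655 with a lower (6.47%) response at F2. With only the 8 libraries compared, 0 were called, and 2374 were called without F3 hrde-1 normoxia 1. C07D8.2 was at 0 in both F3 normoxia libraries and at 55.9 and 40.6 CPM under F3 hypoxia, and so lay in the opposite direction from F2. ugt-64 had 230 and 181 CPM against 46.1 and 59.2 at F3, also opposite to F2, and sls-2.7 had 105 and 112 against 55.2 and 32.5. gta-1 lay in the same direction in both generations, with 0 and 0.573 CPM against 356 and 90.6 at F3.

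Of 261 miRNAs tested, edgeR called 0 (0.0%), with a lowest adjusted p of 0.803, and DESeq2 called 0. At an unadjusted p below 0.05 there were 14 (5.36%), 9 higher (3.45%) and 5 lower (1.92%) under hypoxia. Without normoxia 1, edgeR called 2 and DESeq2 14. The median log2 fold change was 0.02. CPM are here relative to miRNA counts, and the adjusted p of each miRNA below was 0.803. The most abundant, miR-58a-3p, a bantam family miRNA, had 174000 and 124000 CPM against 211000 and 173000, and its groups overlapped.

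No miRNA named here passed the test, and their values are a description. miR-34-5p, known for roles in the DNA damage response, had 364 and 281 CPM against 607 and 537 (0.83 ± 0.39). miR-239a-5p, known from lifespan studies, had 93.5 and 51.3 CPM against 136 and 148 (0.97 ± 0.44). miR-86-5p had 3340 and 2030 CPM against 4670 and 3920 (0.68 ± 0.29). In these 3 the hypoxia libraries lay above the normoxia libraries. The list of stress and ageing miRNAs had 13 of 17 above 0, 4 (23.5%) with groups apart upward and 0 downward, and a median of 0.38, against 14.2% and 11.1% of all miRNAs. Leaving out each library moved that median from 0.05 to 0.54. The list summed to 47300 and 71600 CPM under normoxia and 54300 and 54000 under hypoxia, with overlapping groups. miR-5592-5p had 43.4 and 33.6 CPM against 166 and 66.2 (1.59 ± 0.58), the largest fold change of the miRNAs named here, and miR-229-5p 2270 and 2010 against 3740 and 2440 (0.53 ± 0.23). miR-60-3p, an intestinal miRNA, had 5980 and 4160 CPM against 11000 and 5630 (0.71 ± 0.33), with overlapping groups.

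Lower under hypoxia were miR-73-3p, with 6460 and 9640 CPM against 4790 and 5920 (-0.59 ± 0.22), and miR-72-5p, with 23700 and 32700 against 18200 and 23300 (-0.45 ± 0.21). These belong to one family. miR-41-5p, the passenger arm of a mir-35 family member, had 73.6 and 182 CPM against 65.3 and 66.2 (-0.96 ± 0.35). miR-243-3p, known for its loading into the Argonaute RDE-1, had 406 and 345 CPM against 168 and 300 (-0.68 ± 0.32). miR-81-3p had 20100 and 45100 CPM against 17700 and 20300 (-0.78 ± 0.33), and its groups overlapped because of the normoxia 1 value. Family sums were close. The let-7 family, which times larval and adult transitions, summed to 112000 and 104000 CPM against 89500 and 111000. The mir-35 family, of oocytes and embryos, summed to 34100 and 40800 against 31500 and 35600. In both sums the groups overlapped.

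Of 7978 piRNA features tested, edgeR called 0 (0.0%), with a lowest adjusted p of 0.568. At an unadjusted p below 0.05 there were 253 (3.17%), 155 higher (1.94%) and 98 lower (1.23%), and DESeq2 called 9 (0.113%). DESeq2 gave 1547 of the 7978 features no adjusted p. Without F3, edgeR called 24 of 7326 (0.328%), 20 higher (0.273%) and 4 lower (0.0546%). With F3 kept and 1 library left out, it called 15 without normoxia 1 (6 higher, 9 lower), 3 without normoxia 2 (2 higher, 1 lower), 5 without hypoxia 1 (2 higher, 3 lower) and 9 without hypoxia 2 (2 higher, 7 lower). Lower calls thus outnumbered higher ones without normoxia 1, hypoxia 1 or hypoxia 2. A miRNA or piRNA name can have several entries, one for each interval of the sequence, and outside the F2 WT normoxia libraries these tables hold no value from 1 to 4. Such a feature is therefore called listed at 0, without a fold change. At an equal depth of 300000 counts, the expected numbers of piRNA features above 0 were 6867 and 6482 under normoxia and 7850 and 6942 under hypoxia. Listed at 0 in both normoxia libraries and above 0 in both hypoxia libraries were 346 piRNA features, against 104 the other way round, of 9477 above 0 in any of the 4 libraries.

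Those with the smallest p without F3 were of that kind. piR-cel-68 was listed at 0 under normoxia and had 56.5 and 74.6 CPM of piRNA counts under hypoxia (adjusted p = 0.00124 without F3). piR-cel-1886 had 115 and 48.8 CPM (adjusted p = 0.000178), piR-cel-7831 had 86 and 82.3 (0.0165) and piR-cel-2626 had 66.3 and 28.3 (0.00144), each listed at 0 in both normoxia libraries. All were features of low level, and none passed in the fit of all libraries. The test took each listed 0 as a true 0, though the smallest counts are absent from these libraries. How far the adjusted p of these features depends on this was not tested. In the other direction, piR-cel-4405 had 440 and 915 CPM against 209 and 298, at -1.42 ± 0.37 (adjusted p = 0.654, and 0.0183 without F3). piR-cel-10 had 162 and 457 CPM against 71.2 and 95.1, at -1.90 ± 0.54 (adjusted p = 0.809, and 0.0165 without F3). piR-cel-5808 had 658 and 1200 CPM against 310 and 517, at -1.17 ± 0.36 (adjusted p = 0.987, and 0.0427 without F3), and piR-cel-2849 had 513 and 1540 against 314 and 460 (-1.41 ± 0.40). In all 4 the normoxia 2 library was the highest, and both hypoxia libraries lay below both normoxia libraries. Among all piRNA features tested, 10.9% had the hypoxia libraries below in this way and 15.6% had them above.

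The split into intervals mattered for single piRNAs. The piR-cel-17390 interval from base 1 to 21 had 4000 and 0 CPM against 7130 and 0, while the interval from base 3 to 21 had 2990 in normoxia 2 only. Summed over its intervals it had 4000 and 2990 CPM against 7130 and 2640 (0.48 ± 0.50, adjusted p = 1), with overlapping groups. With the intervals of each name summed, 0 of 7967 piRNAs and 0 of 257 miRNAs were called, with lowest adjusted p of 0.519 and 0.681.

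Of 339 snoRNA features tested, edgeR and DESeq2 each called 0 (0.0%), with a lowest edgeR adjusted p of 0.691 and 13 at an unadjusted p below 0.05 (3.83%), 8 higher (2.36%) and 5 lower (1.47%). Without normoxia 1, edgeR called 5 and DESeq2 10. Y73B3A.30 (X:47179-47506) had 1250 and 888 CPM of snoRNA counts against 5290 and 8780, at 2.71 ± 0.83 (adjusted p = 0.691). Both hypoxia libraries were far above both normoxia libraries, while at F1 its hrde-1 normoxia libraries spread from 13900 to 1510 CPM. C18A3.24 (II:5705155-5705274) had 127 and 191 CPM against 25.8 and 31.5, at -2.43 ± 0.75 (adjusted p = 0.691). Y75B7AL.9 had 22.4 and 11.2 CPM against 96.9 and 94.4 (2.37 ± 0.89, adjusted p = 0.965) and F26A10.28 had 82.1 and 78.7 against 213 and 204 (1.36 ± 0.63, adjusted p = 0.976). T21F2.3 had 3900 and 4130 CPM against 1920 and 2900 (-0.74 ± 0.36, adjusted p = 0.976). In all 5 the groups did not overlap. The most abundant, ZK265.10, had 63400 and 104000 CPM against 97400 and 56500, and its groups overlapped.

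**Figure D5:**
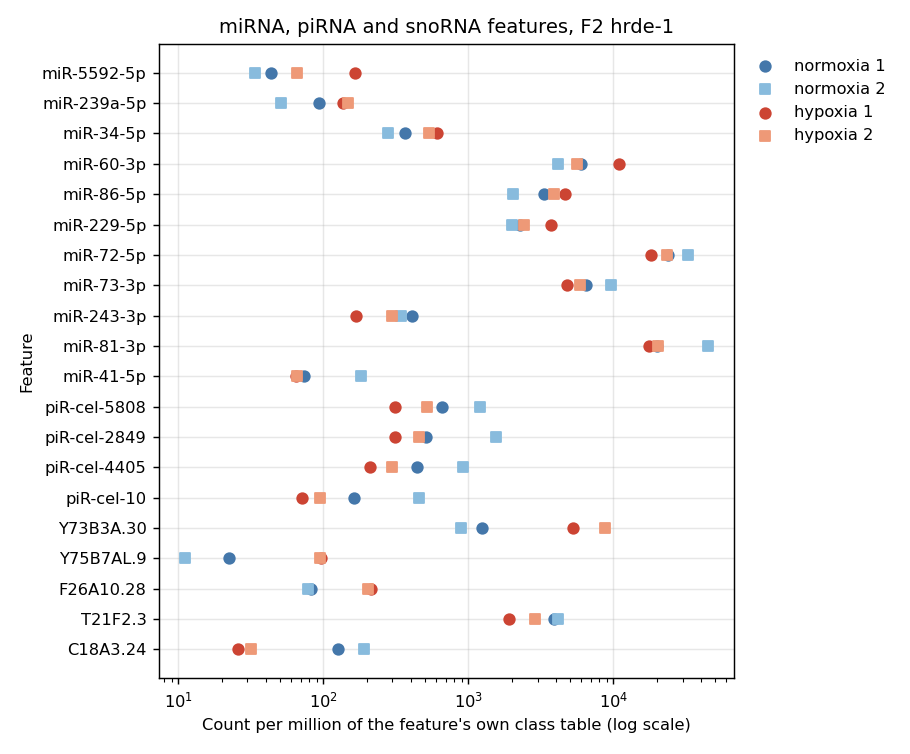
Levels (horizontal axis, CPM within each class on a log scale) of miRNAs, piRNAs and snoRNAs described above (vertical axis), 1 point for each F2 hrde-1 library. Features listed at 0 are not drawn. The snoRNA Y73B3A.30 shows 1250 and 888 CPM under normoxia and 5290 and 8780 under hypoxia, and miR-81-3p overlaps between the groups.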

How the data were processed

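Small RNA of whole worms was measured as counts per feature in 4 class tables, and the 4 F2 hrde-1 libraries were compared as 2 against 2. Per the labels' protocols, total RNA was treated with the pyrophosphohydrolase RppH, which lets small RNAs with a triphosphate end be ligated, and sequenced as single-end 85 bp reads. The submitters' processing notes name FastQC, cutadapt 2.5, featureCounts and edgeR. Aligner, genome build, annotation and strand setting are not given in the sources used here. The deposited values were raw counts of 46932 22G genes, 390 miRNA, 13664 piRNA and 345 snoRNA features. Those of the F2 WT normoxia libraries were partly fractional in the deposited tables, were handled like estimated counts and were rounded to whole numbers. Entries of the 22G table for reads outside genes, ambiguous or unaligned stayed out of library sizes and tests. Symbols and coordinates came from WBcel235, to which 46919 genes matched.

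Counts were tested with edgeR 4.0.16 in R 4.3.3 (quasi-likelihood F test, robust, TMM within each class, minimum count 10, 16 group means over 32 libraries, 16 residual degrees of freedom), adjusted by Benjamini-Hochberg at 0.05. Fold changes have an SE from the F statistic. The procedure was tested on simulated data with the same spread for all features and libraries. Such data do not cover libraries that stand apart, as some did here. DESeq2 1.42.0 and other settings were alternatives, and settings added after seeing the data were the fit without the F3 and P0 WT normoxia libraries, DESeq2 without F3 or without single libraries, and summed intervals. The text names, in each class, up to 8 features in each direction by smallest p, up to 8 called by DESeq2, the 5 most abundant, hrde-1, F44E5.4 and F44E5.5, up to 3 members of each list by smallest p and up to 6 genes called at F1 or F3, as far as shown. The members and lists were chosen with earlier results of these data known. Same-numbered libraries did not deviate together (correlations of 0.02, 0.04, 0.05 and -0.23 in the 4 classes), so numbers were not taken to pair libraries. Replicates were distinct libraries, with a chi-square per degree of freedom of 4.54 or more.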

Additional observations from a re-analysis of the deposited data

Results flagged for a closer look

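The hrde-1 response to the hypoxia label differed between F2 and F3 in 953 genes of 22G RNA by the test of the difference itself, and in 0 genes with only the 8 libraries compared. The differences below are F2 minus F3 on the log2 scale, from edgeR's quasi-likelihood fit of all 32 libraries, with adjusted p. The adjusted p is for the difference, and not for the sign in either generation, and no gene passed at F2 in this fit. Among genes that edgeR called in this test, the fitted log2 fold change was above 0 at F2 and below 0 at F3 in ugt-64 (3.95, adjusted p = 0.000134), sls-2.7 (3.01, adjusted p = 0.000462), W02A11.6 (1.25, adjusted p = 0.0137) and Y17D7B.4 (1.11, adjusted p = 0.0387). The same held for linc-29 (1.11, adjusted p = 0.013), linc-41 (1.31, adjusted p = 0.033) and nmtn-1 (1.45, adjusted p = 0.0144). fbxc-42 was 1.79 at F2 and -0.01 at F3 (1.80, adjusted p = 0.028). Also called by edgeR in this test, with a fitted log2 fold change below 0 at F2 and above 0 at F3, were C07D8.2 (-10.93, adjusted p = 3.33e-08), F42G4.7 (-1.79, adjusted p = 0.0208), rpl-10 (-2.12, adjusted p = 0.0143), cpg-1 (-1.57, adjusted p = 0.0408), lin-41 (-2.63, adjusted p = 0.0234) and hsp-90 (-7.64, adjusted p = 1.02e-05). gta-1 (-5.54, adjusted p = 0.0113) and F31C3.6 (-2.37, adjusted p = 0.0355) were above 0 in both generations and higher at F3. C07D8.2 was at 0 in both F3 normoxia libraries, gta-1 stood there at 0 and 0.573 CPM and hsp-90 at 0.616 and 0, so the fitted differences of these genes depend on the prior count and are no bounds.

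The 22G table also records reads that fell outside genes, which no comparison used. In F2 hrde-1 they came to 31.4 and 31.6 per 100 counts in genes under hypoxia and to 26.3 and 27.8 under normoxia. The hypoxia libraries were higher at F1 (30.1 and 31.5 against 26.8 and 25.7) and at P0 (25.6 and 27.8 against 22.8 and 24.6) of hrde-1, but lower at F3 (26.4 and 27.2 against 27.9 and 27.4). In WT the hypoxia libraries were lower at F1 (36.3 and 36.1 against 39.9 and 38.2), at F2 (35 and 33.4 against 37.1 and 35.6) and at F3 (29.8 and 31.3 against 36.2 and 36.3), and higher at P0 (29.9 and 30.5 against 28 and 29.8). What these reads are was not tested.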

How the results depend on the processing

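The number of features called moved with the fit, and the cause was not tested. For 22G RNA in F2 hrde-1, DESeq2 called 58 genes, no low-count filter gave 65, only the compared libraries 1, the fit without F3 169, without F3 and P0 WT normoxia 175 and DESeq2 without F3 248, and leaving out 1 library gave 0 to 82 with edgeR (82 without normoxia 1, of which 58 were higher and 24 lower) and 16 to 122 with DESeq2 (118 without normoxia 1, 42 higher and 76 lower). In the same order, the hrde-1 minus WT test gave 41, 54, 1, 61, 48 and 186 (0 to 23 with 1 library left out), and the F2 minus F1 test 4, 24, 1, 33, 31 and 57 (0 to 4). The F2 minus F3 test gave 1439 with DESeq2, 513 with the 4-class library size, 0 with only the compared libraries and 203 with only the hrde-1 libraries (368 to 2374 with 1 left out). For piRNA, DESeq2 called 9, the fit without F3 24, without F3 and P0 WT normoxia 17 and DESeq2 without F3 91 (with 1 left out, 3 to 15 with edgeR and 0 to 28 with DESeq2, 18 without normoxia 1, and 28 without hypoxia 2, 11 higher and 17 lower). The piRNA test of hrde-1 minus WT gave 19, 34, 22 and 141, 1 with the 4-class library size and 4 with no filter (3 to 34). For miRNA, leaving out 1 library gave 0 to 14, and hrde-1 minus WT 15 with DESeq2 without F3 (0 to 5). For snoRNA only the compared libraries gave 1 in both tests (0 to 10 and 0 to 1 with 1 left out). With a replicate block, 22G RNA gave 1 gene in F2 hrde-1 (gta-1) and 532 for F2 minus F3, and the block moved no other count of calls. The share differences ranged, with 1 library left out, from -3.87 to 14.6 points (22G RNA), -12.7 to -0.299 (miRNA), -3.39 to 2.71 (piRNA, 1.12 without hypoxia 2) and -0.209 to 3.19 (snoRNA). A group with 1 library left was assumed to vary like the others. Settings with P0 WT normoxia left out, DESeq2 without F3 and DESeq2 with 1 library left out were chosen after seeing the data. The log2 fold change of Y59E1A.4 turned to -0.12 without hypoxia 2 (-0.11 with DESeq2) and was at most 0.45 with another library left out. Depth in normoxia 2 limits low 22G genes.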
